A study of Mus musculus with 7 samples.

Results

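The genes described here are 10 regulators and matrix genes of tendon and cartilage (Scx, Mkx, Sox9, Tnmd, Acan, Chad, Matn3, Cilp, Cilp2 and Prg4), of 53465 genes in the count table. They were listed by name for their known roles in these tissues, and the list was chosen by role with the fold changes between the 2 groups, from earlier results on the same libraries, in view. Their differences between EMT6-PTR and EMT6-P tumors are therefore given as a description, with no test. All 10 were found in the table by gene identifier.

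Tendon and cartilage arise from neighboring mesenchymal progenitors. Scx (scleraxis) and Mkx (mohawk) are transcription factors of the tendon lineage, and Sox9 is the transcription factor that cartilage cells require. Downstream of them, tendon cells make the membrane protein Tnmd (tenomodulin), and cartilage cells fill their matrix with the proteoglycan Acan (aggrecan) and smaller proteins such as Chad, Matn3, Cilp and Cilp2, while Prg4 (lubricin) coats the joint surface. A mammary carcinoma is neither tissue, but Sox9 is also known from mammary and other epithelia, and matrix genes are made by tumor fibroblasts.

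EMT6 is a mouse breast tumor line, implanted at 500000 cells into the mammary fat pad of female Balb/c mice 6 to 8 weeks old, and RNA was sequenced from whole tissue after treatment from day 1, at 250 μg per mouse every 3 days, up to the institutional endpoint. The 3 EMT6-P tumors grew under isotype control IgG antibody. The 3 EMT6-PTR tumors, written PDR in the labels, grew under αPD-L1 antibody and are the acquired-resistance group. A single metastasis of an αPD-L1 treated mouse was also sequenced, and its labels give neither a site nor a replicate number. Variant and antibody change together between the groups, so that their parts cannot be told apart. The labels do not say that the replicates came from separate mice, and the spread between them may be partly technical. The comparison asks how tissue of resistant tumors differs from that of tumors not exposed to αPD-L1.

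Total estimated counts ranged from 20430110 to 25213472 over the 7 libraries. In EMT6-PTR replicate 2 a single gene, CT010467.1, took 13.8% of the counts, and levels are therefore given as CPM, counts scaled to a common library size, with upper-quartile factors, a scaling that is less affected by 1 abundant gene. Replicates of EMT6-PTR varied more than those of EMT6-P, with a common dispersion of 0.246 against 0.0266. The mammary epithelium and carcinoma markers were present in all libraries, but lower in EMT6-PTR replicate 3 (612 CPM summed over 7 genes, against 2373 to 2716 CPM in the other 5 primary tumors). The same tumor had the largest sum of 8 fibroblast markers, 6796 CPM against 764 to 1525 CPM, of which the matrix protein gene Postn gave 5682 CPM. Of these markers 5 were highest in it and 2 were lowest, Thy1 (6.64 CPM against 62.8 to 113 CPM in the other primary tumors) and Dpt (1.40 CPM against 2.81 to 6.16 CPM). Skeletal muscle markers summed to 4248 CPM in EMT6-PTR replicate 1 and to at most 620 CPM in the other primary tumors.

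The 250 bases before the transcription start, from RefSeq on GRCm38.p6, were at hand for 6 of the genes: Tnmd, Acan, Chad, Matn3, Cilp and Cilp2. Those of Cilp and Matn3 are shown because these are the measurable matrix genes with the higher means in EMT6-PTR tumors, and that of Chad because it is a matrix gene with almost no counts. The Cilp bases lie at chr9:65264930-65265179, those of Matn3 at chr12:8947679-8947928 and those of Chad at chr11:94564797-94565046, all on the plus strand. Capitals mark the TATA-like motif TATAA, and the E-box CAGCTG, which is of the kind that factors such as scleraxis can bind.

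Cilp: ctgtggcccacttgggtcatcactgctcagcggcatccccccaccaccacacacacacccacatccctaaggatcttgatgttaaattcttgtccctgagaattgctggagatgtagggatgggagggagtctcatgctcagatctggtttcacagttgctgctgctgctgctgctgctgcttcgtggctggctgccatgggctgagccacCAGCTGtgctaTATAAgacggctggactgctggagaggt

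Matn3: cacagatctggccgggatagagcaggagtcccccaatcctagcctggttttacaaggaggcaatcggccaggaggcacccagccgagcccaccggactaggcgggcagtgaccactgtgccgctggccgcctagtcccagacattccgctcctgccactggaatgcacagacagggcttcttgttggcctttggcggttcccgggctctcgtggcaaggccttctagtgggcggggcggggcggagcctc

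Chad: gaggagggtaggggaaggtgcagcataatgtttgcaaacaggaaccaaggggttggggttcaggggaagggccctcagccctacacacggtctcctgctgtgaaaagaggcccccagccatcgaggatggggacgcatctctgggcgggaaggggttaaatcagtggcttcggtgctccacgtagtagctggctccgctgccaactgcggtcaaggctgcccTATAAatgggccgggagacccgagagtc

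Cilp and Chad held TATAA with its first base at the same position, −28 from the start. Cilp alone of the 3 also held CAGCTG, at −39. Matn3 held neither. The motifs were searched on both strands (TATAA also as TTATA, while CAGCTG reads the same on both). TATAA was found in 22.8% of 32851 promoters of this length and in 3 of the 6 (Cilp, Chad and Tnmd). CAGCTG was found in 13% of all promoters and in 2 of the 6 (Cilp and Acan). A different E-box, CAGATG, read as CATCTG on the other strand, was in 14.4% of all promoters and in none of the 6. Of the SOX-like letters searched, AACAAT was in 9.42% of promoters and in Cilp2, ACAAAG, present there as CTTTGT, was in 16.5% and in Tnmd, and ACAATG was in 10.7% and in none of the 6. A gene with almost no counts and one that was readily measured thus shared the TATA-like motif at the same distance from the start.

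Of the 10 genes, 5 passed the filter on low counts that was applied to all genes (Scx, Sox9, Cilp, Matn3 and Prg4), and 5 did not (Mkx, Tnmd, Acan, Chad and Cilp2). The 5 below the filter were described by estimated counts, for which a count of 0 still allows up to 3. Tnmd, at chrX:133850980-133865577, had 2, 0 and 1 counts in the EMT6-P tumors and 0 in all 3 EMT6-PTR tumors and in the metastasis. Acan, at chr7:79053483-79115099, had 0 counts in all 3 EMT6-P tumors, 1, 0 and 0 in the EMT6-PTR tumors and 1 in the metastasis. The best-known late markers of tendon and of cartilage were thus at or near 0 in every library.

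Mkx had 2, 6 and 4 counts in the EMT6-P tumors, 6, 3 and 0 in the EMT6-PTR tumors and 2 in the metastasis. It shares 201 exon bases with the gene AC148004.2 on the same strand, so that the division of its few reads is uncertain. Chad (chondroadherin, a leucine-rich repeat protein that binds collagen), at chr11:94565047-94569127, had 1, 4 and 1 counts in EMT6-P, 10, 4 and 1 in EMT6-PTR and 3 in the metastasis. Cilp2, a close relative of Cilp at chr8:69880369-69887687, had 4, 0 and 2 counts in EMT6-P, 3, 2 and 1 in EMT6-PTR and 9 in the metastasis. The groups overlapped for all 3 of these genes, and no difference was detectable at this depth.

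**Figure D1:**
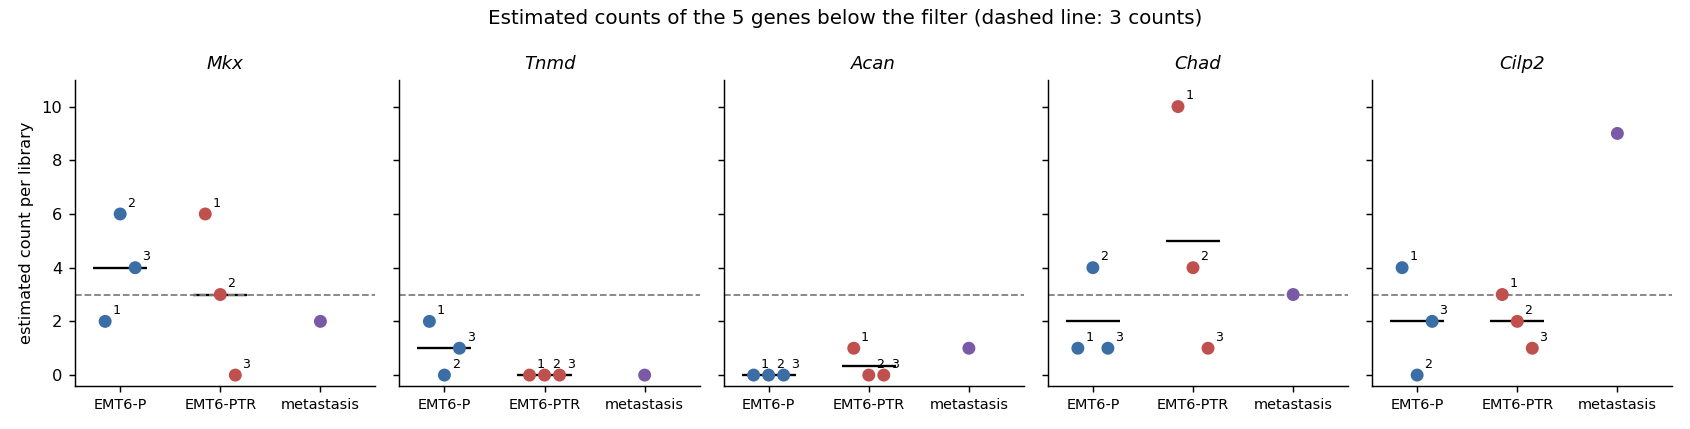
Estimated counts (y axis) of the 5 genes below the filter in each of the 7 libraries, by group on the x axis, with replicate numbers beside the points. Black bars are group means and the dashed line marks the 3 counts that a count of 0 allows. No library exceeded 10 counts for any of the 5 genes.

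Taken by themselves, the levels of these 10 genes do not show an assembled tendon or cartilage program. The regulators Scx and Sox9 were readily measured while Tnmd and Acan were not, and Col2a1, the main collagen of cartilage, had 0 to 17 counts per primary tumor. Of the 24 further cartilage matrix genes described below, 9 passed the filter, all of them highest in EMT6-PTR replicate 3. Another 9 had at most 3 counts in every primary tumor. The 10 genes are therefore described by their separate levels and not as a program.

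Per kilobase of exon, the order of mean levels in EMT6-P tumors was Scx, Sox9, Prg4, Cilp and Matn3. Scx stood at 20.1 ± 4.70 CPM per kilobase (SD, n = 3), and Sox9 at 14.6 ± 4.79 (SD, n = 3), which differ by little more than 1 SD. They lay at the 82.3 and 76.6 percentiles of all genes tested. Prg4 (1.43 ± 0.51 CPM per kilobase), Cilp (1.38 ± 0.59) and Matn3 (0.63 ± 0.45) lay an order of magnitude lower, and the first 2 of these did not differ beyond their spread. In EMT6-PTR tumors the means were 11.5 ± 2.79 for Sox9, 10.7 ± 4.33 for Scx, 4.44 ± 2.19 for Cilp, 1.66 ± 0.90 for Prg4 and 1.61 ± 1.06 for Matn3. The regulators again stood above the matrix genes, with Cilp closer to them.

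Scx is a single short gene at chr15:76457452-76459458 on the plus strand of GRCm38. Its level was 35.4, 34.3 and 51.2 CPM in EMT6-P replicates 1 to 3, 26.8, 26.0 and 11.3 CPM in EMT6-PTR replicates 1 to 3, and 7.43 CPM in the metastasis. All 3 EMT6-PTR tumors were below all 3 EMT6-P tumors, and EMT6-PTR replicate 3 was the lowest of the 6. The means were 40.3 ± 9.44 CPM in EMT6-P and 21.4 ± 8.70 CPM in EMT6-PTR (SD, n = 3 each), a difference of −0.92 on the log2 scale (SE 0.36), or 1.89-fold lower. It was −1.12 to −0.61 when any 1 tumor was left out, with −0.61 without EMT6-PTR replicate 3. In bulk tissue, fewer cells that express a gene and less RNA of it per cell cannot be told apart, and this holds for every level given here.

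Scx lies within the gene Bop1, a ribosome biogenesis factor on the opposite strand, although they share 0 exon bases. Bop1 stood at 102, 94.8 and 80.4 CPM in EMT6-P and at 83.4, 61.7 and 41.8 CPM in EMT6-PTR, a log2 difference of −0.57 (SE 0.26, adjusted p = 0.454 in edgeR's quasi-likelihood test). Both genes were lowest in EMT6-PTR replicate 3. The libraries were stranded, but the strand setting of the counting is not given in the sources used here, and the part of Bop1 reads in the Scx counts was not tested.

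Sox9 lies at chr11:112782224-112787760 on the plus strand. Its level was 51.8, 83.2 and 46.7 CPM in the EMT6-P tumors, 48.9, 58.5 and 35.5 CPM in the EMT6-PTR tumors and 16.6 CPM in the metastasis. The groups overlapped, with EMT6-P replicate 2 the highest and EMT6-PTR replicate 3 the lowest of the primary tumors. The means were 60.5 ± 19.8 CPM in EMT6-P and 47.7 ± 11.5 CPM in EMT6-PTR (SD, n = 3 each), a log2 difference of −0.35 (SE 0.28) that was smaller than the spread between replicates and became −0.05 without EMT6-P replicate 2. The tumor with the least Scx and Sox9 was the one with the least Krt8, a keratin of luminal epithelium and of these carcinoma cells, at 502 CPM against 1675 to 1887 CPM in the other 5. The part of tumor cell content in the levels of the regulators was not tested.

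**Figure D2:**
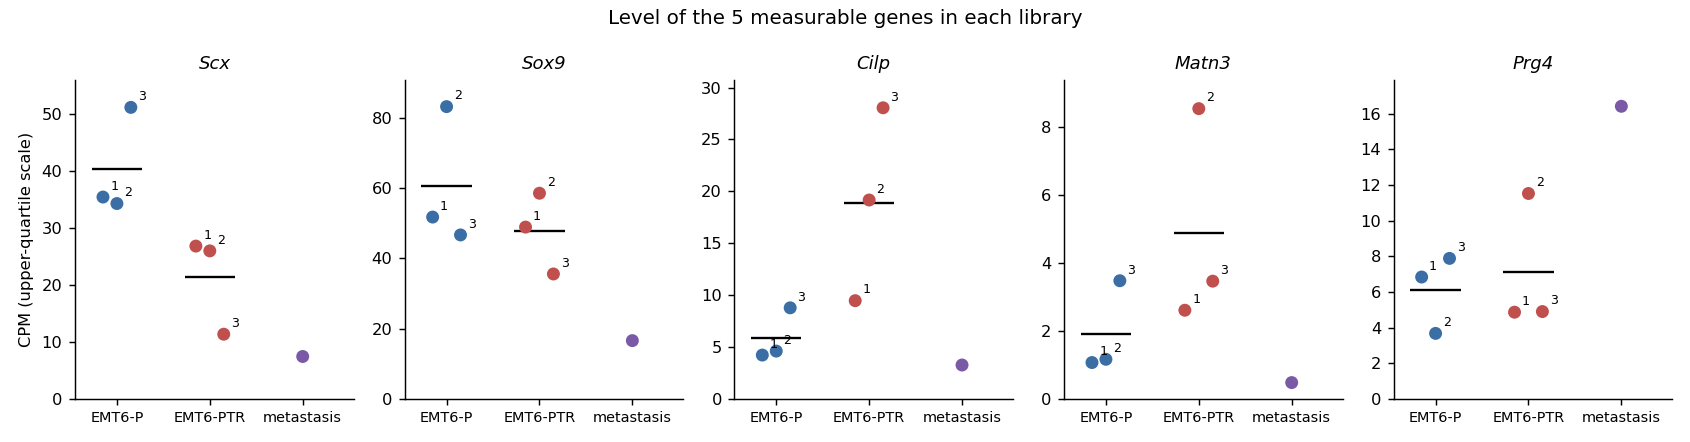
Levels in CPM on the upper-quartile scale (y axis, separate for each gene, starting at 0) of Scx, Sox9, Cilp, Matn3 and Prg4 in each library, by group on the x axis, with replicate numbers beside the points and black bars for the group means. For Scx all 3 EMT6-PTR tumors lie below EMT6-P, for Cilp all 3 lie above it, and for the other 3 genes the groups overlap.

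Cilp (cartilage intermediate layer protein), at chr9:65265180-65280605 on the plus strand, encodes a matrix protein of the middle zone of articular cartilage. Its level was 4.22, 4.60 and 8.77 CPM in the EMT6-P tumors, 9.46, 19.2 and 28.1 CPM in the EMT6-PTR tumors and 3.26 CPM in the metastasis. All 3 EMT6-PTR tumors were above all 3 EMT6-P tumors, although EMT6-PTR replicate 1 exceeded EMT6-P replicate 3 by little. The means were 5.86 ± 2.53 CPM in EMT6-P and 18.9 ± 9.30 CPM in EMT6-PTR (SD, n = 3 each), a log2 difference of 1.69 (SE 0.48), or 3.22-fold higher. It was 1.28 to 2.10 when any 1 tumor was left out. Of the 8 fibroblast markers, 4 had the same order of EMT6-PTR tumors as Cilp (Pdgfra, Pdgfrb, Pi16 and Postn), Thy1 and Dpt had the opposite order, and Fap and Cthrc1 had neither. The part of fibroblast content in the level of Cilp was not tested.

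Matn3 (matrilin 3), at chr12:8947929-8972028 on the plus strand, encodes an adaptor protein of the cartilage collagen network. Its level was 1.07, 1.16 and 3.47 CPM in the EMT6-P tumors, 2.603, 8.53 and 3.46 CPM in the EMT6-PTR tumors and 0.477 CPM in the metastasis, from 12 to 154 counts per library. The groups overlapped, since EMT6-P replicate 3 was above EMT6-PTR replicates 1 and 3. The means were 1.90 ± 1.36 CPM in EMT6-P and 4.86 ± 3.20 CPM in EMT6-PTR (SD, n = 3 each), a log2 difference of 1.35 (SE 0.66), or 2.55-fold higher. Without EMT6-PTR replicate 2 it was 0.67, and without EMT6-P replicate 3 it was 2.12. In both groups the highest tumor had more than 3 times the level of the lowest, with ratios of 3.26 and 3.28.

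Prg4, at chr1:150449412-150466165 on the minus strand, encodes the boundary lubricant of joints and tendon sheaths. Its level was 6.83, 3.67 and 7.88 CPM in the EMT6-P tumors, 4.86, 11.5 and 4.90 CPM in the EMT6-PTR tumors and 16.4 CPM in the metastasis. The groups overlapped, with means of 6.13 ± 2.19 CPM and 7.09 ± 3.83 CPM (SD, n = 3 each) and a log2 difference of 0.21 (SE 0.46). The difference changed sign when replicate 2 of either group was left out, to −0.06 for EMT6-P and to −0.33 for EMT6-PTR. Prg4 shares 204 exon bases with Tpr, a nuclear pore gene on the opposite strand at 181 to 207 CPM in EMT6-P and 176 to 235 CPM in EMT6-PTR, and its estimated counts were fractional, so that its level is uncertain.

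Of the 5 measurable genes, 2 (Cilp and Matn3) had 2-fold or more of their EMT6-P level in EMT6-PTR, as had 6.27% of the 15645 genes tested, and 0 had less by 2-fold or more, as had 1.29% of all genes. All 3 EMT6-PTR tumors lay above EMT6-P for 1 gene (Cilp; 9.52% of all genes) and below it for 1 gene (Scx; 11.8% of all genes). The median log2 difference of the 5 was 0.21, beside 0.03 over all genes tested. At an adjusted p under 0.05 edgeR called 0 of the 15645 genes (0% in either direction; 1786 had an unadjusted p under 0.05) and limma-voom called 0, while DESeq2 called 138 genes higher (0.882%), Cilp among them, and 143 lower (0.914%), with none of the 5 genes among those. Since the genes were listed with this contrast known, these counts are a description of the list only.

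Cilp stood higher relative to Scx in EMT6-PTR tumors than in EMT6-P tumors. Per kilobase, the ratio of Cilp to Scx was 0.056, 0.063 and 0.081 in EMT6-P, against 0.167, 0.348 and 1.17 in EMT6-PTR. The groups could not overlap, because every EMT6-PTR tumor had more Cilp and less Scx than every EMT6-P tumor, so this adds nothing to those levels. Cilp exceeded Scx in EMT6-PTR replicate 3 only. The ratio of Cilp to Sox9 was 0.079, 0.054 and 0.183 in EMT6-P and 0.188, 0.318 and 0.767 in EMT6-PTR, where the highest EMT6-P and the lowest EMT6-PTR tumor were nearly equal. The ratio of Sox9 to Scx, between the regulators, was 0.709, 1.18 and 0.443 in EMT6-P and 0.885, 1.09 and 1.52 in EMT6-PTR, and the groups overlapped.

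Likeness between genes was measured as the root mean square distance of their log2 profiles over the 7 libraries, each centered on its mean, where 0 means the same shape. Scx and Sox9 were 0.53 apart and Cilp and Matn3 were 0.53 apart. All other pairs of the 5 genes were 0.95 to 1.39 apart. Scx, Sox9, Cilp and Matn3 each had genes outside the list nearer than 0.53. How many genes lay within 0.53 was not counted, so these distances do not show a grouping by role. With 14739 genes compared, the profile nearest to Scx was that of Rdh10, a retinol dehydrogenase (0.20), followed by Gm10184 (0.20) and Ranbp1 (0.24). Nearest to Sox9 was AI427809 (0.15), nearest to Cilp was the integrin subunit Itgb8 (0.36), nearest to Matn3 was the desmosomal cadherin Dsc2 (0.43), and nearest to Prg4 was AW112010 (0.19). The median profile of the 5 genes was most like that of Itga11, an integrin subunit that binds collagen (0.27), followed by Socs6 and Lypd3 (0.30 each), Gm4631, Ccdc18, Bclaf3, Il17rd, Zfp458, Cdk5r1 and Cabp1 (up to 0.33). These profiles share their libraries and rest on 7 points.

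The metastasis has no replicate and is described by its values. Scx, Sox9, Cilp and Matn3 were below all 3 EMT6-PTR tumors, as were 29% of all genes tested, and Prg4 was above all 3, as were 25.8%. Scx in the metastasis was 0.277, 0.286 and 0.655 times its level in EMT6-PTR replicates 1 to 3, and Cilp was 0.345, 0.170 and 0.116 times. All 5 genes lay outside both groups in the metastasis, with Scx, Sox9, Cilp and Matn3 under all 6 primary tumors and Prg4 over all 6. The share of all genes outside all 6 was not counted, so this cannot be read as particular to these genes. Lung epithelium markers summed to 8046 CPM there, against 4.23 to 26.9 CPM in the primary tumors, and Krt8 was 738 CPM. The part of lung tissue and of tumor cell content in these levels was not tested.

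**Figure D3:**
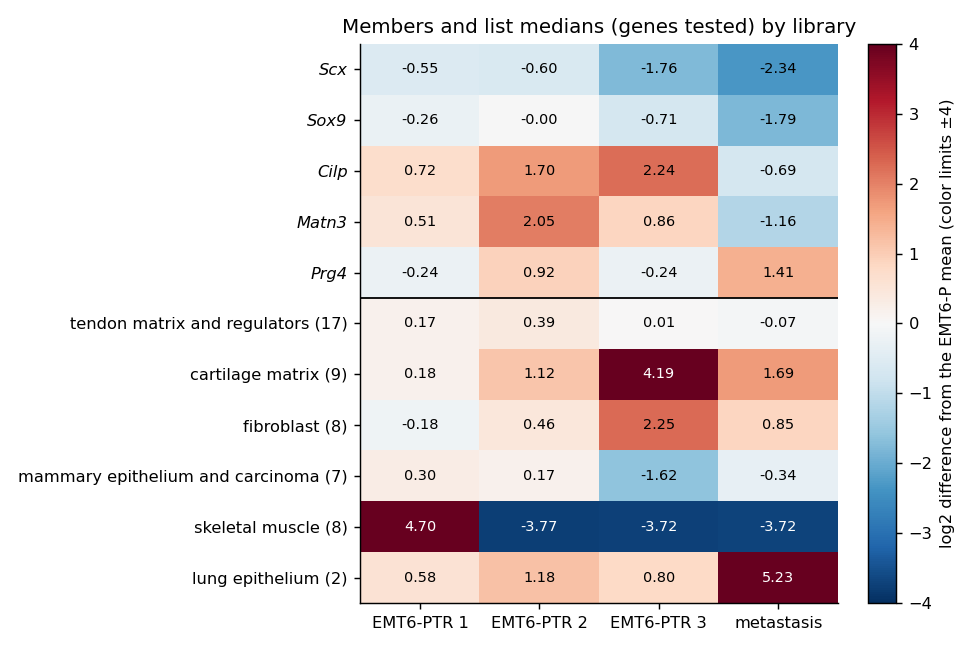
Log2 difference of each EMT6-PTR tumor and of the metastasis (columns) from the mean of the 3 EMT6-P tumors, for the 5 measurable genes (upper rows) and for the medians of lists of tendon, cartilage and cell type genes (lower rows, number of genes tested in brackets), with colors limited to ±4. Cilp is above 0 in all 3 EMT6-PTR tumors, Scx is below 0 in all 4 columns, and the cartilage matrix list is at 4.19 in EMT6-PTR replicate 3.

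To set the 10 genes among their neighbors, 95 other genes of tendon and cartilage biology were grouped into 6 lists. These lists, too, were chosen with earlier results of these data known, so their shares beside those of all genes describe the lists only. Of these, 60 passed the filter, 0 were called at an adjusted p under 0.05 by edgeR's quasi-likelihood test and 0 by limma-voom, and 16 had an unadjusted p under 0.05 (26.7%, against 11.4% of all genes). DESeq2 called 4 higher (Adamts5, Col10a1, Col11a1 and Comp) and 0 lower, against 0.882% and 0.914% of all genes. An increase of 2-fold or more in EMT6-PTR was seen for 17 of the 60 (28.3%, against 6.27% of all genes). A decrease of that size was seen for 0 (1.29% of all genes). The filter can be passed through 1 group alone. With a minimum of 10 counts in each primary tumor, 14 of 55 list genes were at least 2-fold higher, against 4.26% of all genes. All 3 EMT6-PTR tumors lay above EMT6-P for 9 of the 60 (9.52% of all genes) and below it for 1 (11.8% of all genes). For 27 of the 60 the highest of the 6 levels was in EMT6-PTR replicate 3 (45%, against 32.7% of all genes). Without that tumor, 7 of the same 60 genes reached 2-fold, or 9 of the 64 list genes that then passed the filter, against 4.93% of all genes.

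Among cartilage matrix genes, 9 of 24 passed the filter, and 9 others had at most 3 counts in every primary tumor, among them Col9a1, Col9a2, Matn1, Snorc, Ucma and Cnmd. The median log2 difference of the 9 tested genes was 2.99, and all 9 were highest in EMT6-PTR replicate 3. Without that tumor the median of the same 9 was 0.87, or 0.61 over the 10 genes that then passed. Col10a1 and Comp passed the filter through their EMT6-PTR counts, with at most 11 counts in any EMT6-P tumor. With a minimum of 10 counts in each primary tumor, 7 genes remained, with a median of 1.64. Over all 9 the median was 1.69 in limma-voom and 1.54 with the replicate number as a block. Col10a1, the collagen of hypertrophic cartilage, was 0, 0.23 and 0 CPM in EMT6-P and 1.13, 14.3 and 53.3 CPM in EMT6-PTR (log2 difference 8.09, SE 1.81, adjusted p = 0.421 in edgeR's quasi-likelihood test). The size of that difference rests on 5 counts in EMT6-P. Comp, a matrix protein of cartilage and tendon, was 0.34, 0.093 and 0.52 CPM in EMT6-P and 0.78, 2.16 and 21.8 CPM in EMT6-PTR (log2 difference 4.69). Both genes had every EMT6-PTR tumor above EMT6-P. Col11a1, a minor fibrillar collagen also made by activated fibroblasts, was 6.54, 12.1 and 32.3 CPM against 20.4, 195 and 761 CPM, Prelp 9.84, 10.3 and 31.8 CPM against 8.07, 125 and 279 CPM, and Ogn 45.5, 53.5 and 63.0 CPM against 33.8, 105 and 1511 CPM. For these 3 the groups overlapped.

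Of the tendon matrix genes and regulators, 17 of 20 passed the filter, 13 had a log2 difference above 0 and 5 were at least 2-fold higher, with a median of 0.21. Fmod (fibromodulin, a collagen-binding proteoglycan of tendon) was 3.88, 3.39 and 10.5 CPM in EMT6-P and 13.1, 20.3 and 254 CPM in EMT6-PTR, with no overlap (log2 difference 4.02, SE 1.28, adjusted p = 0.423 in edgeR's quasi-likelihood test). Dcn (decorin) was 32.0, 48.8 and 54.9 CPM against 35.8, 104 and 3327 CPM, Col3a1 809, 730 and 1158 CPM against 945, 1986 and 9036 CPM, and Lum (lumican) 18.1, 63.0 and 32.0 CPM against 23.6, 41.5 and 512 CPM. EMT6-PTR replicate 3 was the highest tumor for all 4, and the groups overlapped for the last 3. Col1a1, the main collagen of tendon, was 2414 to 3174 CPM in EMT6-P and 2739 to 3687 CPM in EMT6-PTR, with a log2 difference of 0.19 (SE 0.20).

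The ligands and receptors listed include signals that act upstream of Scx and Sox9, and none that was measurable differed by 2-fold. Of 20 ligands and receptors 15 passed the filter, with a median log2 difference of 0.0009. Tgfb3, a ligand that induces Scx in tendon progenitors, was 59.5, 70.0 and 85.9 CPM in EMT6-P and 99.6, 89.3 and 117 CPM in EMT6-PTR, with no overlap (log2 difference 0.51, SE 0.19, adjusted p = 0.427 in edgeR's quasi-likelihood test). Fgfr3, a receptor that restrains cartilage growth, was 2.13, 1.95 and 1.88 CPM against 2.73, 3.60 and 3.34 CPM, also without overlap, and the BMP receptor Bmpr1a was 73.2 to 86.0 CPM against 79.5 to 161 CPM. Of 9 BMP and TGF-β inhibitors 6 passed the filter, with a median of 0.07, and 2 were at least 2-fold higher. Those were Chrd (chordin), at 9.74, 9.76 and 13.5 CPM against 9.20, 23.9 and 75.9 CPM, and Fst (follistatin), at 47.8, 41.2 and 63.5 CPM against 49.9, 93.1 and 168 CPM. Bambi, a pseudoreceptor that dampens TGF-β signals, was 2.08 to 2.72 CPM against 1.01 to 1.87 CPM.

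Of 13 further transcription factors of cartilage development only Runx2, Runx3, Trps1 and Mef2c passed the filter, and none was 2-fold changed. Trps1 was 60.0 to 77.6 CPM in EMT6-P and 67.6 to 159 CPM in EMT6-PTR. Runx2, required for bone and hypertrophic cartilage, was 57.5 to 72.7 CPM against 48.3 to 64.9 CPM. Mef2c, which also acts in muscle, was highest in EMT6-PTR replicate 1 (60.4 CPM, against 12.8 to 20.9 CPM in the other 5), the tumor with the most skeletal muscle RNA. Sox5 and Sox6, partners of Sox9 in cartilage, did not pass. Sox6 had 83 counts in that same tumor, 0 to 17 in the other primary tumors and 38 in the metastasis. The part of muscle in these levels was not tested.

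The 9 aggrecan-degrading proteases and their inhibitors were all measurable although Acan itself was not, with a median log2 difference of 0.04. At least 2-fold higher were 3 of them. Adamts5, a main aggrecanase of mouse cartilage, was 19.7, 17.0 and 26.6 CPM in EMT6-P and 26.2, 74.2 and 213 CPM in EMT6-PTR (log2 difference 2.31, SE 0.72, adjusted p = 0.421 in edgeR's quasi-likelihood test). Adamts1 was 38.6, 41.0 and 43.2 CPM against 51.8, 85.8 and 174 CPM, and Adamts15 was 0.29, 0.98 and 0.80 CPM against 1.04, 1.44 and 6.18 CPM. The groups did not overlap for Adamts1 and Adamts15, and EMT6-PTR replicate 3 was the highest for all 3.

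**Figure D4:**
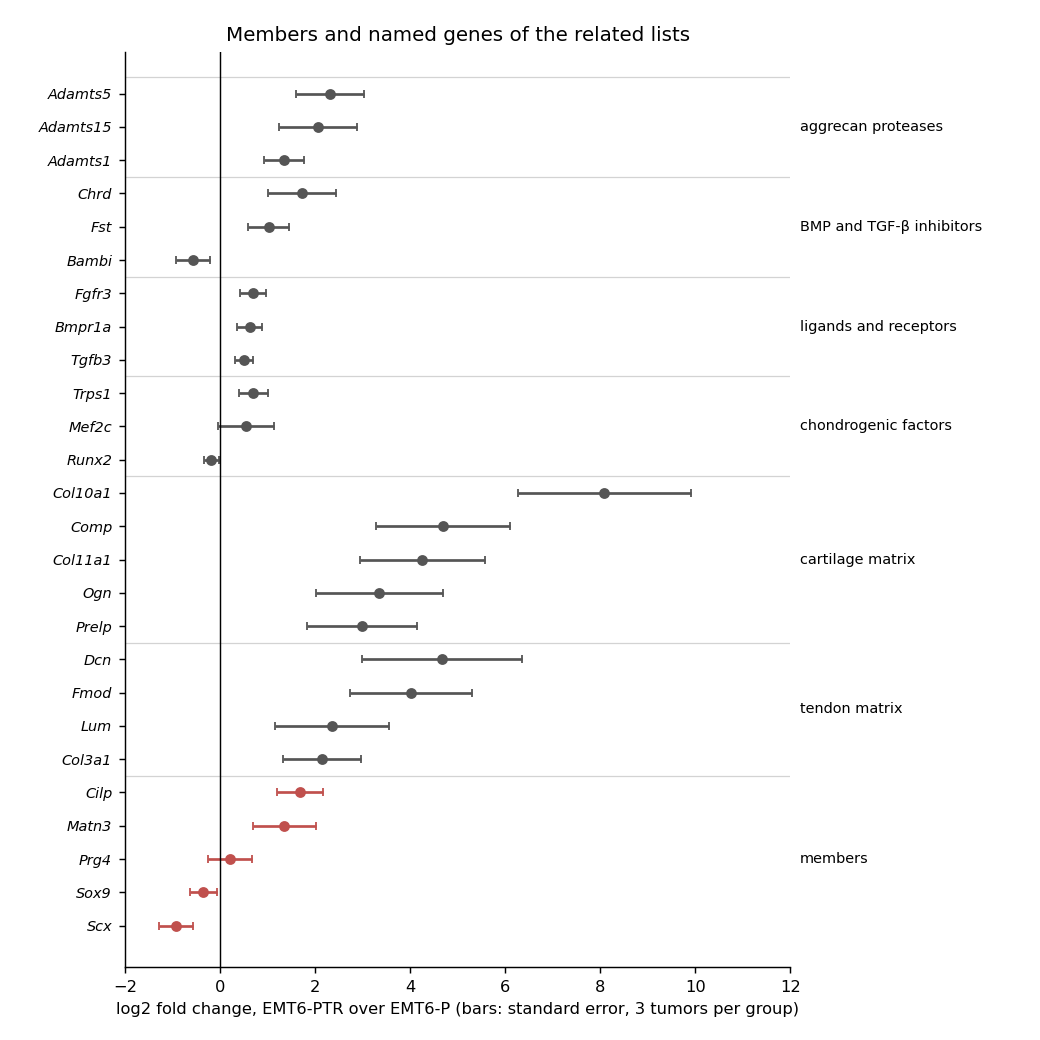
Log2 difference of EMT6-PTR over EMT6-P (x axis) with its standard error (bars, 3 tumors per group) for the 5 measurable genes (red) and for the named genes of the 6 lists (gray). Scx and Sox9 lie below 0, Prg4 lies near it, and Cilp and Matn3 lie above it with smaller differences than Col10a1, Comp, Col11a1 and the tendon proteoglycans Dcn and Fmod.

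Markers of the other cell types were counted beside these genes, and none had an adjusted p under 0.05 in edgeR. Of 8 fibroblast markers all passed the filter and 5 exceeded their EMT6-P level by 2-fold or more, and the median log2 difference of 1.37 became 0.36 without EMT6-PTR replicate 3. Pi16, a marker of adventitial fibroblasts, was 3.25, 3.07 and 4.78 CPM in EMT6-P and 7.64, 19.6 and 44.3 CPM in EMT6-PTR, with log2 differences of 1.66 for Fap and 1.85 for Pdgfra. Thy1 was 62.8, 113 and 89.5 CPM in EMT6-P and 71.2, 66.6 and 6.64 CPM in EMT6-PTR.

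Bone markers were mixed, with a median of −0.03 over 6 tested genes. Alpl (tissue-nonspecific alkaline phosphatase) was 56.7 CPM in EMT6-PTR replicate 2 against 1.11 to 13.3 CPM in the other primary tumors, and Phex was 56.7 CPM in replicate 3 against 0.56 to 1.72 CPM, while Spp1 (osteopontin) had a log2 difference of −0.48. Osteoclast markers had a median of −0.47 over 4 genes (Acp5 −0.32, Ocstamp −0.78, Ctsk −0.49). Mammary epithelial and carcinoma markers had a median of −0.35 over 7 genes (Krt8 −0.48, Krt14 −0.75), and Krt5 was 0.73, 3.25 and 26.8 CPM in EMT6-P and 9.15, 5.15 and 1.13 CPM in EMT6-PTR. Endothelial markers had a median of 0.23 over 5 genes (Tie1 0.37, Pecam1 0.24, Emcn −0.14) and leukocyte markers one of 0.12 over 4 genes (Cd3e 0.78, Itgam −0.27, Ptprc 0.20). The bone, endothelial and leukocyte medians changed sign with some tumor left out, to as far as 0.14, −0.06 and −0.21.

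The 8 muscle markers had a median of 2.04, which became −8.51 without EMT6-PTR replicate 1 and was −2.39 in limma-voom. In EMT6-PTR replicate 1 Acta1 was 1649 CPM, Myh1 643 CPM, Myl1 202 CPM, Mylpf 164 CPM and Pvalb 98.1 CPM, and in the other EMT6-PTR tumors none of these exceeded 7.03 CPM. The shorter lists rested on 2 tested genes each. Adipocyte markers (Fabp4 0.69, Cfd −0.26) had a median of 0.21, which was −0.82 when EMT6-PTR replicate 2 was left out and 1.06 when EMT6-P replicate 3 was. S100b, made by glia and by chondrocytes among others, was 0.58, 0.19 and 0.94 CPM in EMT6-P and 0.56, 2.44 and 12.5 CPM in EMT6-PTR. Of the lung markers (median 1.28), Ager was 1.60, 1.44 and 1.78 CPM in EMT6-P and 3.12, 25.9 and 11.9 CPM in EMT6-PTR, with no overlap, and Foxj1 had a difference of −0.52. None of 5 skin keratinocyte markers passed the filter. The part of any of these cell types in the levels of the 10 genes was not tested.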

How the data were processed

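All 7 libraries of the table were used: 3 of EMT6-P, 3 of EMT6-PTR and 1 of a metastasis. The authors prepared stranded libraries of polyadenylated RNA, checked reads with FastQC 0.11.5, aligned them to GRCm38 with STAR 2.6.0a and estimated gene abundance with RSEM 1.3.1, per the submitters' processing notes. The deposited values are estimated counts per gene, before filtering or normalization. RSEM divides reads that fit several genes by estimation, so values of genes that share sequence are uncertain.

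Identifiers were matched without version numbers to GENCODE M21, which gave a symbol to 53274 of 53465 and none to 191. Counts were rounded to whole numbers, filtered with filterByExpr (minimum count 10), scaled by upper-quartile factors and fitted by group with the quasi-likelihood test of edgeR 4.0.16 in R 4.3.3, with Benjamini-Hochberg adjustment over all 15645 genes and a threshold of 0.05. The metastasis was placed on the same CPM scale and not tested. Standard errors were derived from the test's F value. Profiles for likeness were log2(CPM + 0.5), over genes with a mean of at least 1 CPM. Levels between genes were compared per kilobase of the union of exons.

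The 10 genes and all lists were chosen with earlier results of these data known. Named are all 10 genes, up to 3 genes with the smallest p in each list, any list gene at least 4-fold changed, and the nearest profiles by rank, and 1 marker gene with its list is not reported here. Col2a1, Col1a1, Bop1, Tpr, Sox5, Sox6, Runx3, Thy1, Dpt, Postn, Pdgfrb, Cthrc1 and the undetected cartilage genes were named after their values were seen. Alternatives were TMM factors, DESeq2 1.42.0, limma-voom (limma 3.58.1), no filter, a minimum of 10 counts in each library, a fit with the metastasis as its own group, the replicate number as a block, leaving out each tumor, and CPM on library totals. On simulated counts at a dispersion of 0.1, edgeR recovered 91% of 200 genes changed by 2 on the log2 scale, with 9 false calls among 15909 genes, and at a dispersion of 0.4 it recovered 0% among 15830. The real common dispersion was 0.14 over both groups, but 0.0266 in EMT6-P and 0.246 in EMT6-PTR. The simulation gave every gene in both groups the same dispersion, so its recovery does not carry over to these data. No genome sequence or protein table was used here.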

Additional observations from a re-analysis of the deposited data

How the results depend on the processing

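The log2 differences of Scx, Sox9, Cilp and Matn3 kept their sign under TMM factors, DESeq2, limma-voom, no filter, a minimum of 10 counts in each library, a fit with the metastasis as its own group, the replicate block and leaving out each tumor. That of Prg4 turned to −0.059 when EMT6-P replicate 2 was left out, and to −0.33 when EMT6-PTR replicate 2 was. Genes called numbered 281 under DESeq2 and 0 in the other settings, limma-voom and every fit without 1 tumor included, with 618 to 3234 genes at an unadjusted p under 0.05. Of the 10 genes, 2 had 2-fold or more in EMT6-PTR in most settings, 4 without a filter, where the added genes come from those with almost no counts, and 1 to 2 with a tumor left out. The median of the 5 genes ranged from −0.33 to 0.43 with a tumor left out and from 0.11 to 0.23 in the other settings with these 5 genes, and was 0.08 over all 10 without a filter. The count of list genes at least 2-fold higher, a measure added after the data were seen, was 33 without a filter and 9 to 20 with a tumor left out, the lowest without EMT6-PTR replicate 3, and the number of list genes tested changed with the filter. Without that tumor it was 7 over the same 60 genes. The cause of these shifts was not tested, apart from the number of genes tested without a filter. Deviations of same-numbered tumors from their group means correlated by 0.26, 0.25 and 0.04. The same-numbered EMT6-PTR tumor was the best match for EMT6-P replicates 1 and 2 but not for replicate 3. These values do not settle whether the replicate numbers pair the tumors. The replicate block called 0 genes (1268 at an unadjusted p under 0.05), left 2 of the 10 at this size and gave a median of 0.13 and a log2 difference of 1.64 for Cilp, −0.97 for Scx, 1.36 for Matn3, −0.33 for Sox9 and 0.13 for Prg4. Scx, Sox9 and Cilp rested on 82 to 1791 estimated counts per library, while 5 of the 10 genes had at most 10 and were too low for any comparison. CPM on library totals moved no mean by more than the spread between replicates.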

Other observations

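The 4 genes named here, from the cartilage and tendon lists and below the filter, had more than 10 counts in 1 or 2 libraries only, and they were chosen after their values were seen. Epyc, which encodes a small leucine-rich proteoglycan of growth cartilage, had 939 estimated counts in EMT6-PTR replicate 3 and 0 to 2 in the other primary tumors, with 5 in the metastasis. Hapln1, the link protein that ties aggrecan to hyaluronan, had 219 counts in EMT6-PTR replicate 3 and 0 to 4 in the other primary tumors. Kera (keratocan) had 270 counts in EMT6-PTR replicate 3 and 251 in the metastasis, with 0 or 1 elsewhere. Cytl1, a secreted protein of cartilage, had 262 counts in the metastasis and 0 to 5 in the primary tumors. EMT6-PTR replicate 3 was also the tumor with the most Cilp, Col10a1 and Comp and the least Scx among the primary tumors, while Acan stood at 0 counts in it.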
